A study of Mus musculus with 4 samples.

Results

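The immunity-related GTPases, or IRG proteins, are interferon-induced GTP-binding proteins of mice. Messenger RNA of 8 IRG genes was followed in bulk mouse liver tumours: Irgm1, Irgm2, Igtp, Iigp1, Tgtp1, Tgtp2, F830016B08Rik and Gm4951. They were taken from the 55487 genes of the deposited table by matching the Ensembl identifiers to these symbols in GENCODE M21, and all 8 were found. The members were chosen with the contrast between knockout and wild type known, so their differences below are a description and carry no test.

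IRG proteins defend cells against bacteria and protozoa that live inside a membrane-bound vacuole. Interferon binding at the cell surface activates STAT and IRF transcription factors, which switch the genes on, and effector IRG proteins then coat and break the vacuole. Regulatory IRG proteins sit on the cell's own membranes and keep the effectors inactive there. The classes differ in the P-loop that binds the phosphates of GTP, with methionine in the regulators where other GTPases have lysine. In liver, Iigp1 is also known for a hepatocyte transcript.

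The tissue was hepatocellular carcinoma from 4 mice, each titled as wild type or knockout, with 2 animals per group. The series title names the mice as Alb-cre H11-myc, an albumin-driven Cre with a Myc transgene at H11, and the tumours as described arose spontaneously under c-Myc in both groups. The labels do not give the alleles of each animal, so whether the wild type mice carried both transgenes is read from the title alone. The knockout animals are described as lacking Tfrc, the transferrin receptor that imports iron, in the liver. The albumin promoter directs the deletion to hepatocytes and their lineage. Age, sex and strain are not given in the sources used here. Replicates were separate animals, and a bulk count cannot tell fewer cells of a type from less RNA per cell.

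Libraries held 15918349 to 17052943 counts, of which the 8 genes took 5568 in replicate 1 and 2567 in replicate 2 of wild type, against 10294 and 5650 in those of the knockout. Tfrc itself was at 460 and 234 CPM (the count relative to the TMM-scaled library size) in wild type and 334 and 205 CPM in knockout, so the libraries overlapped and this gene did not check the labels. The names below are therefore those of the labels. Wild type replicate 2 stood apart on the first principal component, at 86.6 against -38.5 to -11.2 for the other libraries. Mitochondrial genes took 4.13% to 16.63% of counts, least in wild type replicate 2 and most in knockout replicate 2. Hepatocyte markers were present in every library, with Alb at 5376 to 29461 CPM.

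Of the 8 genes, 5 lie on chromosome 11 (mm10). Tgtp1 (ENSMUSG00000078922, 48985327 to 48994172), Tgtp2 (ENSMUSG00000078921, 49057194 to 49064206) and Irgm1 (ENSMUSG00000046879, 48861968 to 48871683) share a cluster on the minus strand of chromosome 11. Igtp (ENSMUSG00000078853, 58199556 to 58207591) and Irgm2 (ENSMUSG00000069874, 58199618 to 58222782) lie on the plus strand of the same chromosome. All 8 members are annotated as protein coding, and the positions of Iigp1, Gm4951 and F830016B08Rik are given with their values.

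The codons of the P-loop split the genes of chromosome 11 into the regulatory and the effector class, and are shown for that reason. Each run is read on the gene's own strand from GENCODE M21 transcripts (GRCm38), and capitals mark the codon that sets the class, ATG for methionine or AAG for lysine.
Irgm1, chr11:48866761-48866784: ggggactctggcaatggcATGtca
Irgm2, chr11:58219695-58219718: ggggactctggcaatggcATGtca
Igtp, chr11:58206275-58206298: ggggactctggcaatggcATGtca
Tgtp1, chr11:48987667-48987690: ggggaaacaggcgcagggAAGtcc
Tgtp2, chr11:49059534-49059557: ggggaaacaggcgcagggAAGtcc
The 24 bases were identical among the 3 regulators, although their coding sequences as a whole were only 63.3% to 66.1% identical in pairs. Iigp1, Gm4951 and F830016B08Rik also had the lysine codon. Tgtp1 and Tgtp2 were 99.7% identical over 1248 coding bases, so short reads from the coding sequence can rarely be told apart between them. The rest of their transcripts was not compared. Iigp1 and Gm4951 were 88% identical, and F830016B08Rik was 66.6% identical to Iigp1 and 66% to Gm4951.

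Bases upstream of the start are shown because interferon acts on these genes through short promoter motifs. Of the 8 genes, 5 matched a RefSeq promoter (GRCm38.p6). The motifs searched were the STAT site GAS, TTCNNNGAA, which reads the same on either strand, and the ISRE core bound by IRF and STAT complexes, which is GAAA followed after any 2 bases by GAAA, searched on both strands. The 120 bases up to the RefSeq start are printed on the gene's strand, with matches to either motif in capitals. For Irgm1, Irgm2 and Tgtp1 that start lies inside the GENCODE span given above.
Irgm1, chr11:48871421-48871540: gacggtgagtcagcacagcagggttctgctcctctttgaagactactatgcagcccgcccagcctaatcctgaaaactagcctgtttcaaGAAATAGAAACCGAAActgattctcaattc
Irgm2, chr11:58214857-58214976: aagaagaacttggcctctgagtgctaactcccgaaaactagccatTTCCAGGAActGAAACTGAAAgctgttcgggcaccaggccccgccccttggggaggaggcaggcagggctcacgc
Igtp, chr11:58199436-58199555: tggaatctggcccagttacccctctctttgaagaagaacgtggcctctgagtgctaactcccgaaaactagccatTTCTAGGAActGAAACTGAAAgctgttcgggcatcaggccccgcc
Tgtp1, chr11:48992247-48992366: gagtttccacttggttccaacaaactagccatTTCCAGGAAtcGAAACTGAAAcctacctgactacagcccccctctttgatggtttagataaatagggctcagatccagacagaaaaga
Tgtp2, chr11:49064213-49064332: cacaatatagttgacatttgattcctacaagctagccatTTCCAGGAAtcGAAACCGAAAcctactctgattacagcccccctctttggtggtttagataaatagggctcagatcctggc
In Irgm2, Igtp, Tgtp1 and Tgtp2 a GAS match was followed, 2 bases on, by an ISRE match in the same layout. Irgm1 held no GAS match in its 300-base window and had 2 overlapping ISRE matches, which together make 3 copies of GAAA at the same spacing. Over all 32851 RefSeq promoter windows of 300 bases, 8.3% held the GAS pattern and 3.44% the ISRE pattern. A GAS match and an ISRE match at any spacing stood in 149 of them (0.454%). The spacing of 2 bases is the one found in these related genes, so its rarity is a description alone. A GAS match with an ISRE match 2 bases after it stood in 5 windows (0.0152%), 4 of which belonged to these members. The remaining window belonged to Gm12185, another IRG gene of the chromosome 11 cluster. The GENCODE span of Gm12185 on the minus strand reaches to 48992226, next to the Tgtp1 bases printed above. Both windows may therefore hold the same match, which was not tested.

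**Figure D1:**
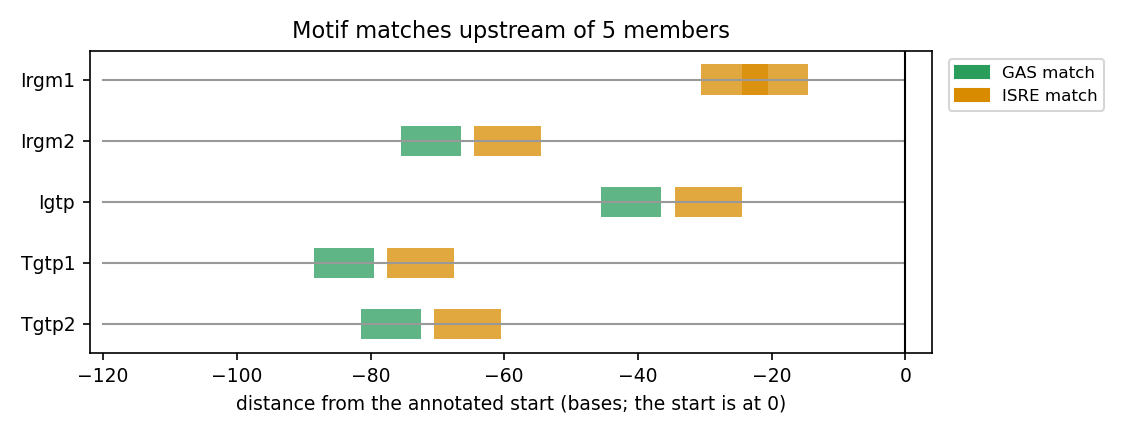
Matches to the GAS pattern (green) and the ISRE pattern (orange) in the 120 bases upstream of 5 members, by distance in bases from the RefSeq start. In 4 genes the green box precedes the orange one by 2 bases, beginning 45 to 88 bases before the start, and Irgm1 has 2 overlapping orange boxes alone.

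A motif match is a description of the letters in a window and not a measured binding site. The wider set of genes with an ISRE match, members left out, had 424 tested genes with a median log2 fold change of -0.03, against 0.01 for all 16310 tested genes. In 81 of these 424 both knockout libraries lay above both wild type libraries, which 21.9% of all tested genes did. The 942 tested genes with a GAS match had a median of 0.01, and 209 of them separated in that direction. Both shares were near that of all tested genes.

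Each of the 8 IRG genes had a higher mean in the tumours labelled Tfrc knockout than in wild type, as 50.4% of all tested genes had a positive log2 fold change. The folds ran from 1.67-fold for Irgm1 to 22.1-fold for F830016B08Rik. In 6 of the 8, both knockout libraries lay above both wild type libraries, a separation seen in 21.9% of all tested genes. When counts were scaled by library totals in place of TMM factors, 4 of the 8 separated, against 18% of all tested genes, because Irgm2 and Iigp1 then overlapped. The median log2 fold change over the 8 was 1.20, beside 0.01 over all tested genes. All 8 passed the filter on low counts, F830016B08Rik through its knockout libraries. Since the genes were chosen on this contrast, neither count nor median supports a difference. Across the whole table edgeR's quasi-likelihood test called 0 of 16310 genes (0%) at an adjusted p of 0.05, with 3.95% higher and 4.35% lower at an unadjusted p under 0.05. By limma-voom 0 were higher and 0.00613% (1 gene) lower, and by DESeq2 0.386% were higher and 0.521% lower.

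**Figure D2:**
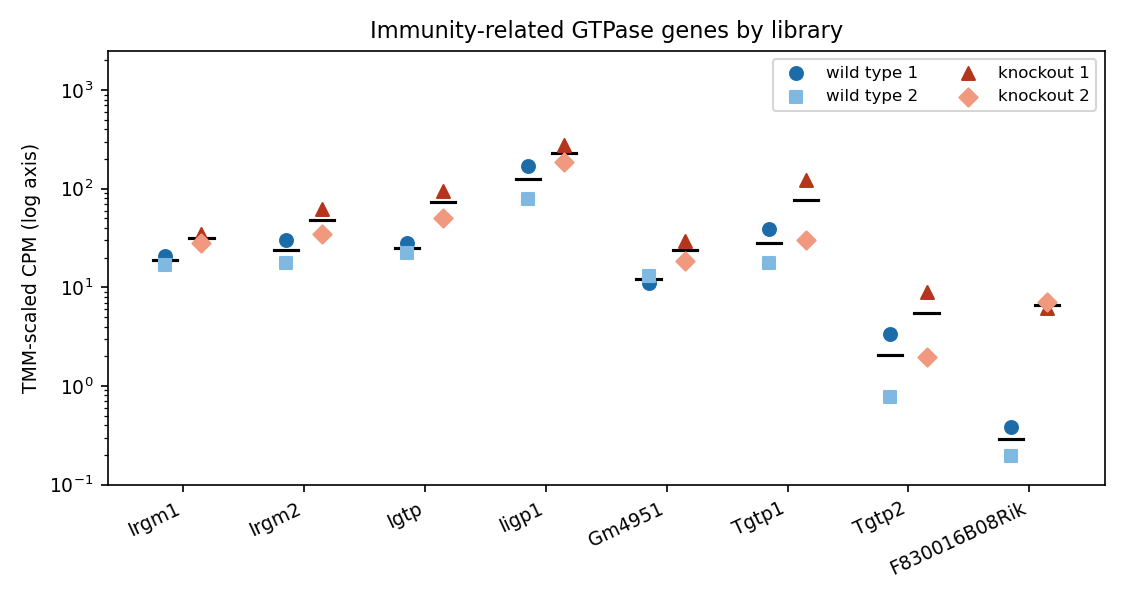
TMM-scaled CPM (log axis) of the 8 IRG genes in each of the 4 libraries, with the group means as black bars. The knockout points of 6 genes lie above both wild type points, while those of Tgtp1 and Tgtp2 overlap them, and F830016B08Rik lies below 0.4 CPM in wild type and above 6 CPM in knockout.

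Among the regulators, Igtp (also called Irgm3), which guards endoplasmic reticulum and lipid droplet membranes, had 28.1 CPM in replicate 1 and 22.4 CPM in replicate 2 of wild type, against 94.5 and 50.5 CPM in those of the knockout. Both knockout libraries were higher than both wild type libraries, and they differed more from each other than the wild type libraries did. The means were 25.3 ± 4.02 and 72.5 ± 31.1 CPM (SD, n = 2 each), a log2 fold change of 1.52 (SE 0.39). Without knockout replicate 1 it was 0.97.

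Irgm2, a Golgi-associated regulator, had 30.2 and 17.7 CPM in wild type and 61.6 and 34.3 CPM in knockout. The lower knockout library was only slightly above the higher wild type library, and replicate 1 exceeded replicate 2 in both groups. Its means were 24 ± 8.83 and 48 ± 19.3 CPM, a log2 fold change of 1.00 (SE 0.42), which was 0.49 without knockout replicate 1 and 0.67 without wild type replicate 2.

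Irgm1, which associates with Golgi and lysosomal membranes and supports autophagy, had 20.9 and 16.8 CPM in wild type and 34.8 and 27.9 CPM in knockout. Its replicates lay closest together among the regulators, and the groups did not overlap. The means were 18.8 ± 2.9 and 31.3 ± 4.89 CPM, a log2 fold change of 0.74 (SE 0.33), the smallest of the 8 members in the fit on all libraries.

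Igtp and Irgm2 are not fully separate in the annotation. The annotated span of Irgm2 begins inside Igtp on the same strand, and the genes share 162 exon bases. The sources used here do not state how reads from that stretch were assigned, and a part of either count may belong to the other gene.

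The other 3 members lie on the plus strand of chromosome 18 (mm10): Gm4951 (ENSMUSG00000073555, 60212080 to 60247820), F830016B08Rik (ENSMUSG00000090942, 60293380 to 60303016) and Iigp1 (ENSMUSG00000054072, 60376027 to 60392634). Among the effectors, Iigp1 (also called Irga6), which is loaded onto parasite vacuoles, had the most counts of the family. It had 170 and 78.5 CPM in wild type and 277 and 186 CPM in knockout. Wild type replicate 1 came close to knockout replicate 2, and the wild type libraries differed by 1.11 on the log2 scale. Means were 124 ± 64.8 and 232 ± 64.3 CPM, a log2 fold change of 0.90 (SE 0.45). This value was 0.45 without wild type replicate 2, 0.56 without knockout replicate 1 and 1.53 without wild type replicate 1.

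Tgtp1, which with Tgtp2 encodes the effector Irgb6, had 39.1 and 17.5 CPM in wild type and 122 and 30 CPM in knockout. Knockout replicate 2 lay below wild type replicate 1, so the groups overlapped. The means were 28.3 ± 15.3 and 76 ± 65.2 CPM, a log2 fold change of 1.43 (SE 0.68) that rested on knockout replicate 1: without it the value was 0.055. Leaving out any other library gave 0.96 to 2.11.

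Its near copy Tgtp2 had 3.32 and 0.78 CPM in wild type and 8.94 and 1.96 CPM in knockout, in the same order of libraries as Tgtp1. The groups overlapped again, with counts of 61 and 12 against 145 and 31. The log2 fold change was 1.40 (SE 0.92) and went to -0.10 without knockout replicate 1. It was 0.72 when wild type replicate 2 was left out, 2.76 when wild type replicate 1 was, and 2.12 when knockout replicate 2 was.

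Tgtp2 took a small share of the reads of the Tgtp pair in every library. Of the counts of Tgtp1 and Tgtp2 together, Tgtp2 took 7.83% (95% Wilson interval 6.14% to 9.93%) and 4.27% (2.46% to 7.32%) in wild type, and 6.82% (5.83% to 7.98%) and 6.13% (4.35% to 8.56%) in knockout. Each interval overlapped every other, and they cover counting error only, since the reads carry no molecular identifiers. Gm12185, which shares 223 exon bases with Tgtp1 on the same strand and is 76% identical to it in coding sequence, took 1.82% to 3.1% of its own counts and those of Tgtp1. Whether the Tgtp2 counts are separate transcripts or misassigned reads of Tgtp1 was not tested. Adding the counts of the pair before the fit gave a log2 fold change of 1.42.

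The genes of chromosome 18 also included the family's widest difference. F830016B08Rik, an uncharacterised IRG gene named by its clone, had 7 and 3 counts in the wild type libraries against 100 and 112 in the knockout ones, or 0.38 and 0.19 CPM against 6.17 and 7.06 CPM. The knockout libraries were alike and far above the wild type ones, where the lower library had just 3 counts. The summed counts, 212 against 10, gave a ratio of 22.3 after scaling, with an exact 95% counting interval of 11.9 to 47.2 that leaves out the spread between mice. The fitted log2 fold change was 4.47 (SE 0.64) and lay between 4.09 and 4.99 when any library was left out.

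Gm4951, the closest relative of Iigp1 here, had 11.2 and 12.9 CPM in wild type and 29.5 and 18.3 CPM in knockout. It was the sole member with a higher value in wild type replicate 2 than in wild type replicate 1. Its means were 12 ± 1.25 and 23.9 ± 7.92 CPM, a log2 fold change of 0.99 (SE 0.38) that was 0.57 without knockout replicate 1.

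Single animals weighed on most members. In 6 of the 8 genes, wild type replicate 2 was the lowest library and knockout replicate 1 the highest, a pattern of 10.5% of all tested genes. In 6 of the 8, replicate 1 exceeded replicate 2 in both groups, as in 25.5% of all tested genes. Leaving out knockout replicate 1 lowered the log2 fold change of 7 of the 8, with F830016B08Rik as the exception, and the median over the 8 fell to 0.55.

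**Figure D3:**
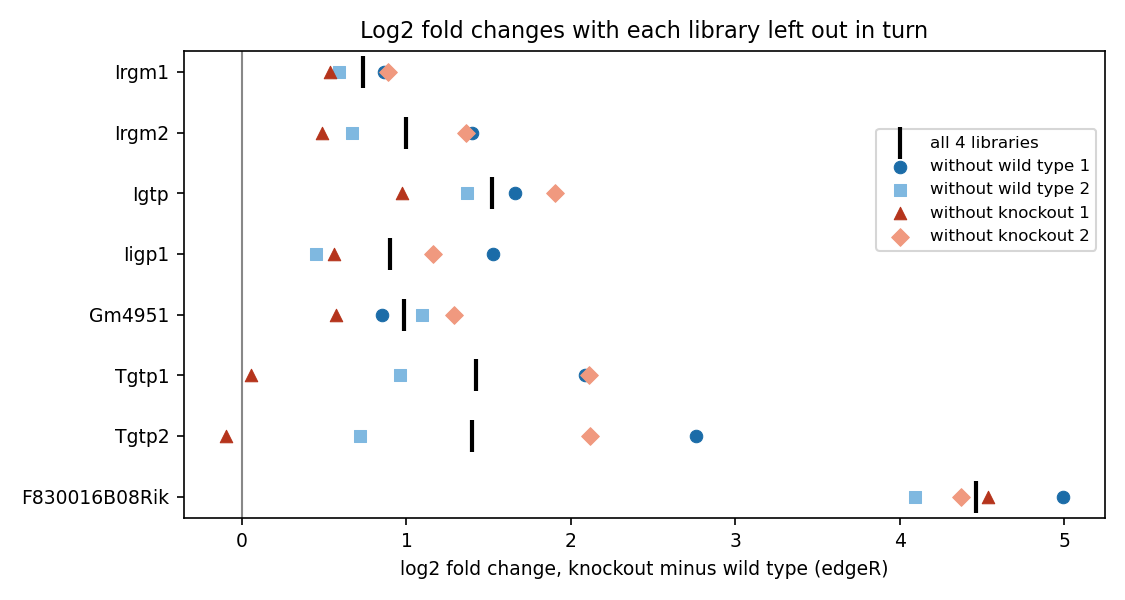
Log2 fold changes (knockout minus wild type, edgeR) of the 8 IRG genes with all 4 libraries (black bars) and with each library left out (coloured points). F830016B08Rik stays between 4.09 and 4.99, whereas Tgtp1 and Tgtp2 fall to 0.055 and -0.10 without knockout replicate 1.

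Levels between genes can be compared only per length, and the deposited FPKM, counts scaled by gene length and library total, needs care for that. Its length equalled the sum of all distinct annotated exons for 97.8% of 14357 genes, within 1%, so bases in overlapping exons of several transcripts were counted more than once. For Irgm2 this length was 10457 bases, against 3690 bases of merged exons, and for Iigp1 it was 11504 against 5823. For Gm4951 and F830016B08Rik both lengths were equal.

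By deposited FPKM, Iigp1 ranked highest in wild type at 11.3 ± 7.34 FPKM, followed by Tgtp1 at 7.81 ± 5.19, Igtp at 5.04 ± 1.55, Gm4951 at 4.57 ± 0.22, Irgm2 at 2.38 ± 1.2, Irgm1 at 2.35 ± 0.71, Tgtp2 at 0.69 ± 0.67 and F830016B08Rik at 0.09 ± 0.05 FPKM (SD, n = 2). Neighbours from Iigp1 to Gm4951 overlapped in range, as did Irgm2 and Irgm1. Within each wild type library, Iigp1 still lay above Tgtp1 and Tgtp1 above Igtp. The order of Igtp and Gm4951, and that of Irgm2 and Irgm1, changed between the libraries. Gm4951 lay above Irgm2, Irgm1 above Tgtp2, and Tgtp2 above F830016B08Rik in both libraries, with no overlap in range. In knockout, Tgtp1 and Iigp1 had like means of 20.1 ± 17.7 and 20.1 ± 6.3 FPKM. Igtp had 14.2 ± 6.55, Gm4951 9.01 ± 3.31, Irgm2 4.58 ± 2 and Irgm1 3.81 ± 0.74 FPKM. F830016B08Rik had 1.99 ± 0.12 and Tgtp2 1.73 ± 1.61 FPKM. The order of Tgtp1 and Iigp1, that of Irgm2 and Irgm1, and that of F830016B08Rik and Tgtp2 changed between the knockout libraries.

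Per kilobase of merged exons, Igtp moved ahead of Tgtp1 and Irgm2 ahead of Gm4951 by mean level. Iigp1 then led in both groups, with levels of 32.7 and 12.2 in wild type and 48.5 and 30.9 in knockout on the FPKM scale. Igtp followed with 15.5 and 10 in wild type and 47.6 and 24.1 in knockout, close to Iigp1 in knockout replicate 1. On this scale the 3 regulators together made up 35.4% and 43.7% of the family's level in wild type, and 40.5% and 43.3% in knockout, so the groups overlapped. F830016B08Rik made up 0.16% and 0.14% in wild type and 1.09% and 2.38% in knockout. Tgtp1 made up between 10.4% and 22.3%, both extremes being knockout libraries.

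**Figure D4:**
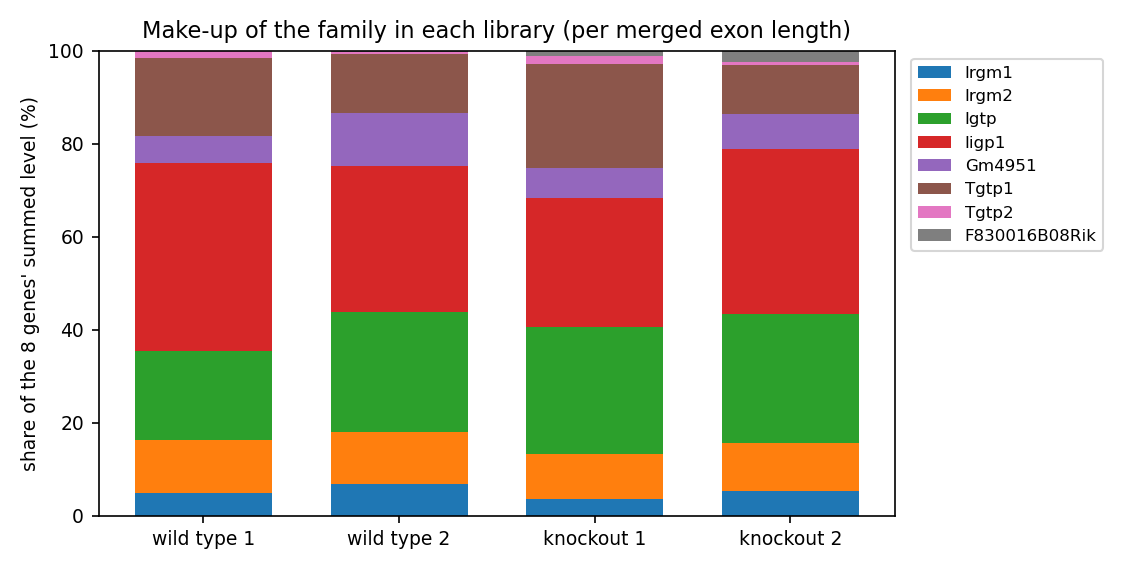
Share of each of the 8 IRG genes in the family's summed level per merged exon length (%), by library. Iigp1 takes 27.8% to 40.3% and Igtp 19.2% to 27.7% of the bar in every library, and the share of F830016B08Rik is visible only in the knockout bars.

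IRG genes outside the members numbered 10 in the table, of which 8 were tested. All 8 had a positive log2 fold change (median 0.98), as had 50.4% of all tested genes. In 4 both knockout libraries lay above both wild type libraries, as in 21.9% of all tested genes. None passed edgeR's adjusted threshold, 2 were higher at an unadjusted p under 0.05, and DESeq2 called 1 higher. Of all tested genes, 3.95% were higher at that unadjusted p and DESeq2 called 0.386% higher. Ifi47, the effector Irgd, had 23.7 and 15.3 CPM in wild type and 45.6 and 29.8 CPM in knockout. Gm12250, known as Irgb10 but annotated in GENCODE M21 as a processed pseudogene, had 2.18 and 0.84 against 7.83 and 2.4 CPM. Its lower knockout library was only slightly above its higher wild type library. Ifi47 shares exon bases with neighbouring genes, so its counts may be mixed.

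Gm4841, an IRG gene that lies between Gm4951 and F830016B08Rik on the opposite strand and is 77.8% identical to the latter, showed a like near absence in wild type. Its counts were 5 and 2 against 107 and 23, a ratio of 19.6 with a counting interval of 9.22 to 49.6 that leaves out the spread between mice. Gm4841 passed the filter on low counts through its knockout libraries, and it is among the tested IRG genes counted above. The knockout libraries differed widely for Gm4841 and were alike for F830016B08Rik. Counts of 9930111J21Rik2 were 65 and 13 against 71 and 61, those of 9930111J21Rik1 17 and 3 against 11 and 26, those of Gm5431 25 and 13 against 29 and 16, and those of Gm12185 23 and 5 against 51 and 12. The last 3 overlapped between groups. Irgq, a distant relative that is not known as interferon-induced, had 24.8 and 17.8 CPM in wild type and 26.1 and 23.1 CPM in knockout. Irgc1, a testis gene, had 2 counts in all, and Gm12187 had none.

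The guanylate-binding proteins, which act with IRG proteins at vacuoles, also stood higher in mean. Of 11 genes 10 were tested, and 9 had a positive log2 fold change (median 1.12), beside 50.4% of all tested genes. Both knockout libraries were above both wild type libraries in 7, beside 21.9% of all tested genes. By edgeR's adjusted test 0 passed, 2 were higher at an unadjusted p under 0.05, and DESeq2 called 1 higher. The shares of all tested genes were 3.95% higher at that unadjusted p and 0.386% higher by DESeq2. Gbp7 had 8.66 and 3.18 CPM in wild type against 21 and 9.84 CPM in knockout, and Gbp2 had 12 and 6.89 against 28.9 and 6.43 CPM, with an overlap.

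The interferon gamma signalling list did not share that direction. Besides genes of the pathway, it held the cytokine genes Il12a, Il12b and Il18, of which only Il18 was tested. Of 17 genes 14 were tested, with 3 positive and 11 negative log2 fold changes (median -0.16), and both knockout libraries were above wild type in 2 and below in 3, beside 21.9% and 20.1% of all tested genes. Without wild type replicate 2, 10 of the 14 lay below, when 35.7% of all tested genes did. Il18 was among the 11 negative genes, the 3 below and these 10. By edgeR 0 passed, 1 was lower at an unadjusted p under 0.05, and DESeq2 called 0. Of all tested genes, 4.35% were lower at that unadjusted p and 50.4% had a positive log2 fold change. Ifng, the cytokine itself, had 2 counts in wild type replicate 1, 2 in knockout replicate 2 and 0 in the other libraries. All were under the floor of 3 counts, so no difference was detectable at this depth.

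Of the receptor subunit genes, Ifngr1 had a log2 fold change of -0.11 and Ifngr2 of -0.77 (SE 0.32). Ifngr2 was lower in both knockout libraries, at 48.1 and 34.4 CPM against 76.8 and 64.5 CPM in wild type. Irf1 had 29.5 and 14.9 against 22.8 and 16 CPM, with the groups overlapping. Socs1, a feedback inhibitor of the pathway, had 3.05 and 1.23 against 5.18 and 3.53 CPM.

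In type I interferon signalling, 5 of 8 tested genes had a positive log2 fold change (median 0.19), and 3 had both knockout libraries above wild type, beside 21.9% of all tested genes. Without wild type replicate 2 this count was 6, when 37.2% of all tested genes lay above. By edgeR 0 passed, 1 was higher at an unadjusted p under 0.05, and DESeq2 called 0. Of all tested genes, 3.95% were higher at that unadjusted p and 50.4% had a positive log2 fold change. Stat2, the STAT of the complex that binds ISRE, had 48.7 and 22.1 CPM in wild type and 91.3 and 89.8 CPM in knockout. For Stat2 the log2 fold change was 1.35 (SE 0.42). Irf9, its DNA-binding partner, had 19.9 and 17 against 25.6 and 28.7 CPM. Irf3, Irf7 and Usp18 overlapped between groups, with log2 fold changes of 0.08, 0.29 and -0.05. For Tyk2 both knockout libraries lay above wild type (0.37 on the log2 scale). The receptor subunit genes Ifnar1 (-0.16 on the log2 scale) and Ifnar2 (-0.36) overlapped between groups. Ifnb1 had 2 counts, both in wild type replicate 2, and Ifna4 had none.

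Autophagy proteins of the ATG5 conjugation system place IRG proteins on vacuoles. The list of 13 genes tested also held Sqstm1, Traf6 and Trim21, which are not part of that system. Of the 13, 7 had a positive log2 fold change (median 0.13). Both knockout libraries were above wild type in 4 and below in 3, beside 21.9% and 20.1% of all tested genes. The 4 above were Atg3, Atg12, Traf6 and Trim21, and the 3 below were Atg5, Atg7 and Map1lc3a. The upward count was 7 without wild type replicate 2, when 37.2% of all tested genes lay above. By edgeR 0 passed, 1 was lower at an unadjusted p under 0.05, and DESeq2 called 0. Of all tested genes, 4.35% were lower at that unadjusted p and 50.4% had a positive log2 fold change. Atg7, the E1-like enzyme, had 44.1 and 53.1 CPM in wild type and 27.1 and 25.7 CPM in knockout. Atg5 had 44.1 and 40.9 against 34.2 and 32.2 CPM, while Atg3 had 50.3 and 50 against 55.6 and 65.6 CPM. Atg16l1 and Gabarapl2 overlapped between groups.

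**Figure D5:**
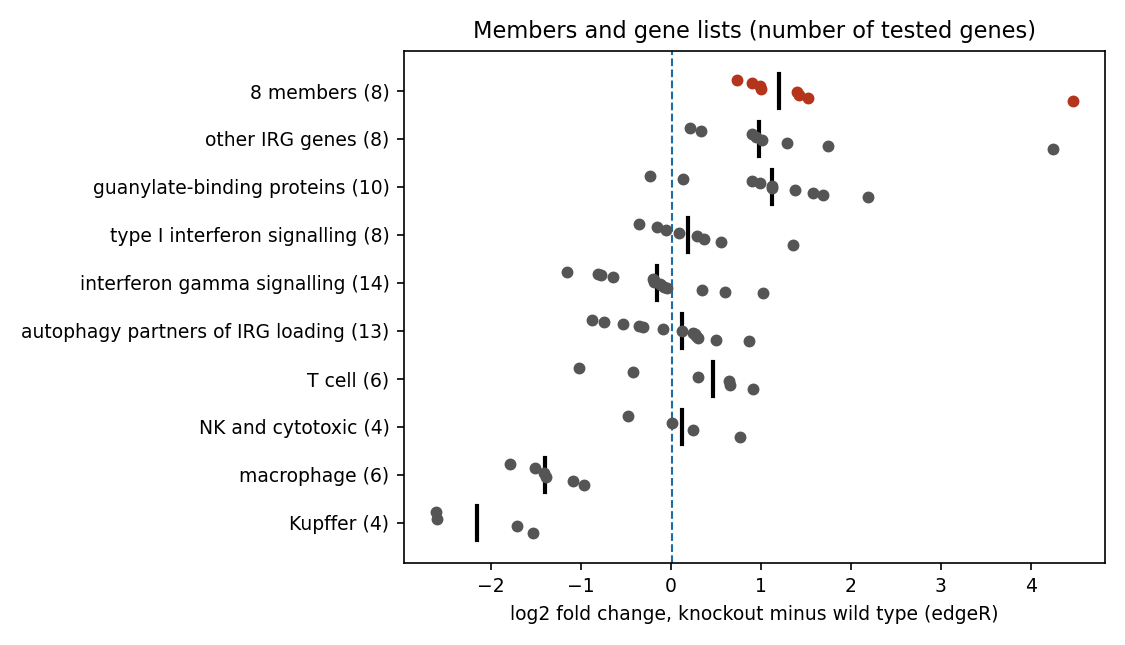
Log2 fold changes (knockout minus wild type, edgeR) of the tested genes of each list (points), with the list medians (black bars) and the median of all tested genes (blue dashed line). The 8 members, the other IRG genes and the guanylate-binding proteins have medians of 1.20, 0.98 and 1.12, and the interferon gamma signalling list has -0.16.

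Markers of several cell types were lower in the libraries labelled knockout, among them those of macrophages, erythroid cells and neutrophils. The summed macrophage markers were 896 and 1104 CPM in wild type and 553 and 286 CPM in knockout, with 6 of 6 lower in both knockout libraries (median log2 fold change -1.40). Erythroid markers were at 901 and 2046 CPM against 198 and 139 CPM, with 4 of 4 lower. Of all tested genes, both knockout libraries were below both wild type libraries in 20.1% and above in 21.9%. T cell markers summed to 21.9 and 7.73 CPM in wild type and 15.3 and 13.3 CPM in knockout, with 2 of 6 higher, and cytotoxic markers to 9.31 and 5.46 against 9.93 and 4.6 CPM, with 0 of 4 tested genes separated. The Kupffer cell sums, 5.39 and 136 against 7.34 and 18.1 CPM, were set mainly by wild type replicate 2, and Clec4f was at 0 in wild type replicate 1. Neutrophil marker sums were 21.9 and 59.3 against 12.1 and 13.7 CPM, with 3 of 3 tested genes lower (median log2 fold change -2.86). Ly6g was at 0 throughout. Endothelial markers were at 129 and 126 against 93.6 and 69 CPM, with 3 of 4 lower. Stellate cell markers were at 647 and 528 against 257 and 449 CPM, with 3 of 4 lower. Bile duct markers were at 38.5 and 48.5 against 38.8 and 59.4 CPM, with 0 of 3 separated. B cell markers were at 2.56 and 3.64 against 2.22 and 3.09 CPM, with 1 of 2 tested genes lower. Dendritic cell markers were at 3.21 and 3.7 against 4.75 and 4.73 CPM, with 1 of 3 tested genes higher. Hepatocyte markers overlapped between groups, at 9531 and 39124 against 28698 and 26810 CPM. The part of any of these cell types in the IRG values was not tested.

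Genes whose pattern over the 4 libraries was most like the members' median were found by the root-mean-square difference of centred log2 CPM among 10451 named coding genes with a mean of at least 5 CPM. The nearest were Asxl2, a chromatin regulator (0.09), the interferon-induced chemokine gene Cxcl10 (0.14), the interferon-induced nucleotide kinase gene Cmpk2 (0.15), the co-chaperone gene Ttc4 (0.15) and the tetraspanin gene Tspan7 (0.16). Cxcl10 had 47.1 and 30.7 CPM in wild type and 107 and 73.9 CPM in knockout, and Asxl2 had 13 and 7.28 against 34.3 and 16.3 CPM. With 4 libraries, likeness among so many genes is a description alone.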

How the data were processed

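Poly(A) messenger RNA libraries of 4 tumours were analysed. The authors deposited whole-number counts and FPKM per gene; HISAT2, SAMtools 1.3.1, StringTie, edgeR and mm10 are named without roles, per the submitters' processing notes. Strandedness and the treatment of multi-mapping reads are not given in the sources used here. Symbols came from GENCODE M21 (55141 of 55487 identifiers matched, and 99.4% of their spans were equal). The deposited FPKM gave 1 length per gene across libraries within 1% for 100% of 14371 genes with at least 10 counts in every library, and was used for levels per length.

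Genes with low counts were removed with filterByExpr, leaving 16310. Counts were TMM-scaled and fitted with edgeR's quasi-likelihood test (edgeR 4.0.16, R 4.3.3; Benjamini-Hochberg over all genes), tested on simulated data. SEs are the log2 fold change over the root of F. An exact permutation test of 2 against 2 cannot go below p = 0.333. Alternatives used DESeq2 1.42.0, limma 3.58.1, other scalings and filters, a replicate block and each library left out. Coding sequences were aligned with MAFFT 7.526. The members and lists were chosen with earlier results of these data known. Named genes were all members, other IRG genes, core genes of each list, cell markers, Tfrc and 5 genes by likeness of pattern. Some further genes of the signalling and autophagy lists were named afterwards to describe what those lists hold. A floor of 3 counts was 0.163 to 0.195 CPM. A gene of the interferon gamma signalling list is not reported here by name.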

Additional observations from a re-analysis of the deposited data

How the results depend on the processing

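With 2 animals per group, the limits below come mainly from single libraries. Of 111 refits of single members under other scalings, filters, tests, prior counts or with a library left out, 110 kept a positive log2 fold change. The exception was Tgtp2 without knockout replicate 1, at -0.10. In 8 of the 111 the value moved by more than the member's within-group SD on the log2 scale. All refits reuse the same 4 libraries and members chosen on this contrast, so the shared sign does not support a difference. With each library left out in turn, the ranges were 0.54 to 0.89 for Irgm1, 0.49 to 1.40 for Irgm2, 0.97 to 1.90 for Igtp, 0.45 to 1.53 for Iigp1, 0.055 to 2.11 for Tgtp1, -0.10 to 2.76 for Tgtp2, 4.09 to 4.99 for F830016B08Rik, 0.57 to 1.29 for Gm4951, and 0.55 to 1.63 for the median of the 8. A prior count of 5 gave F830016B08Rik 3.56, since a larger prior shrinks genes with few counts. With a filter at a mean of 5 CPM, Tgtp2 and F830016B08Rik were not fitted. The count of separated members was 6, and 4 with library totals. It was 6 to 8 with a library left out, which makes separation easier. Without wild type replicate 2 it was 6, when 37.2% of all tested genes lay above. That share is given for this omission alone, so the counts up to 8 cannot be set against all tested genes.

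Over the whole table the number of genes called was 0 with edgeR, 1 with library totals, 148 with DESeq2, 1 with limma-voom, and 0 to 409 with a library left out, with 409 when wild type replicate 1 and 68 when wild type replicate 2 was left out. The replicate block called 4 genes; same-numbered mice are not stated to be paired, and the deviations of same-numbered libraries correlated at 0.12 across genes. With other gene lengths, chosen after seeing the data, 9 of the ranks by level changed with merged exons and 9 with the longest coding transcript. Separation without wild type replicate 2 was also added after seeing the data. Genes with knockout above wild type then went from 3 to 6 in the type I interferon signalling list and from 4 to 7 in the autophagy list. They were still 4 among other IRG genes, 7 among guanylate-binding proteins and 2 in the interferon gamma signalling list. Those below went from 3 to 10 in the interferon gamma signalling list and from 0 to 2 among guanylate-binding proteins. All tested genes went from 21.9% to 37.2% above and from 20.1% to 35.7% below. The cause was not tested. Low counts limit Tgtp2, F830016B08Rik, Gm4841, Ifng and Ifnb1.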
